A study of Mus musculus with 30 samples.

Results

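The comparison set hematopoietic stem cells (HSCs) sorted 6 days after 5-fluorouracil (5-FU) against CD48+ hematopoietic progenitor cells (HPCs) sorted 10 days after it. Each library was made from the RNA of 100 sorted bone marrow cells. Its members are 8 of the 30 libraries of the series, namely the 4 libraries labelled as day-6 HSCs and the 4 labelled as CD150+CD48+ HPCs, and all genes were compared by the total reads on their exons. Day-6 HSCs came from 5-FU-treated C57BL/6 mice aged 8 to 10 weeks and carried the surface phenotype CD150+ CD48- EPCR+ Lineage-. CD48+ HPCs came from bone marrow of mice of that strain and age, 10 days after the drug, and differed in the gate by CD48 alone (CD150+ CD48+ EPCR+ Lineage-). Both groups therefore share the drug, the EPCR and CD150 gates and the tissue, and they differ in day, in CD48 gate and in experiment. The remaining groups used below are day-10 HSCs (6 libraries, sorted like the day-6 HSCs), CD48- HSCs sorted beside the HPCs at day 10 (4 libraries), untreated HSCs that served as the 5-FU control (4 libraries) and uncultured HSCs that served as the control of a culture experiment (4 libraries). The labels used here give no run or date, and they set the experiments apart only by title and by the sample fields they fill. They do not state whether libraries of a group came from separate mice, so the p-values measure the spread between these libraries, which may be technical. In pools of sorted cells, fewer cells of one type and less RNA per cell cannot be told apart.

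5-FU is a pyrimidine analog that blocks thymidylate synthase and kills dividing cells, so that mostly non-dividing HSCs survive and then enter the cell cycle to rebuild the marrow. CD150 and CD48 are receptors of the SLAM family: long-term HSCs carry CD150 and lack CD48, and CD48 appears as cells become multipotent and lineage-restricted progenitors. EPCR, the endothelial protein C receptor encoded by Procr, marks HSCs in mouse marrow and is used when 5-FU makes other markers unreliable. Multipotent progenitors turn on receptors such as Flt3 and, in the myeloid branch, granule proteases and myeloperoxidase.

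Day-6 HSCs held more transcripts of stem cell genes (Vwf, Mecom, Mmrn1), of STAT5-type feedback inhibitors (Cish, Socs2) and of the GTPase gene Gem. They held fewer transcripts of most progenitor genes examined, among them Flt3, Cd34, Cd244, Nkg7 and Plac8, and Mpo was almost absent from them. Platelet genes as a list moved both ways. Total exon reads ran between 6473093 and 8289885 in the day-6 HSC libraries and between 9115895 and 12243208 in the CD48+ HPC libraries, so each day-6 library was shallower than each HPC library. By edgeR's quasi-likelihood test with Benjamini-Hochberg adjustment, 3961 of 12546 genes tested (31.6%) passed an adjusted p of 0.05. Of these, 1916 (15.3%) were higher and 2045 (16.3%) were lower in day-6 HSCs, and 864 (6.89%) differed at least 2-fold, 434 upward (3.46%) and 430 downward (3.43%). CPM, the exon reads of a gene per 1000000 exon reads of its library, separated the groups with no overlap for 3786 genes (30.2%), 1927 of them higher (15.4%) and 1859 lower (14.8%) in day-6 HSCs. Here and below, CPM are scaled by the trimmed mean of M values (TMM) and are not divided by gene length, so they compare libraries and not genes. A log2 change is that of day-6 HSCs over CD48+ HPCs with its standard error (SE).

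Several libraries stood apart from the rest of their groups. Day-6 HSC replicate 1 and CD48+ HPC replicate 3 held the most macrophage transcripts, day-10 HSC replicate 4 held more erythroid transcripts and day-10 HSC replicate 6 more interferon-induced transcripts than the other day-10 libraries. Leaving out day-6 replicate 1 and HPC replicate 3, an alternative chosen after seeing the data, gave 3966 calls in the main comparison; where all 4 of these libraries are left out of the fit with experiment as a term, this is said below. CD48- HSC replicate 3 also held more erythroid and macrophage transcripts than the rest of its group, with a mean log2(CPM + 1) over the erythroid list of 5.36, against 2.07 to 2.23 in the other CD48- HSC libraries. Among uncultured HSCs, which serve below as a yardstick only, replicates 1 and 3 stood high in that list, at 4.40 and 5.55, and replicates 1 and 4 had 1676 and 1025 CPM of Mpo, against 2.08 and 0.450 CPM in replicates 2 and 3.

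How large a count 2 experiments can give between like cells was measured on pairs of groups that share a phenotype. Untreated against uncultured HSCs, which are steady-state HSCs of separate control sets, gave 193 of 12578 genes (1.53%) at the same threshold, 80 higher (0.636%) and 113 lower (0.898%) in untreated HSCs, and 18 (0.143%) at 2-fold or more. Day-10 HSCs against CD48- HSCs share day, drug and gate and join the same experiments as the main comparison; they gave 461 of 12688 genes (3.63%), 278 higher (2.19%) and 183 lower (1.44%) in day-10 HSCs, and 36 (0.284%) at 2-fold or more. The standard deviation of the log2 change over the 12134 genes tested in all fits was 0.599 for day-6 HSCs over CD48+ HPCs, 0.326 for untreated over uncultured HSCs and 0.381 for day-10 over CD48- HSCs. The 95th percentile of the absolute log2 change was 1.22 for the main comparison, 0.647 for untreated over uncultured HSCs and 0.725 for day-10 over CD48- HSCs. Of the 3961 genes called in the main comparison, 103 were also called between untreated and uncultured HSCs (2.60% of the 3961, and 54.8% of the 188 genes called there and tested in both). Likewise 271 were also called between day-10 and CD48- HSCs (6.84% of the 3961, and 59.0% of 459). Among 3864 called genes with a value in all these fits, 3116 (80.6%) changed by more in the main comparison than in either pair of like groups. These genes were selected by their change in the main comparison, so a high share follows in part from that choice. The standard deviations and percentiles above cover called and uncalled genes alike. The pairs' own counts moved widely with the library left out, between 31 and 121 for untreated against uncultured HSCs and between 8 and 906 for day-10 against CD48- HSCs. They also depended on how the spread was estimated. With all 30 libraries in 1 fit, day-10 against CD48- HSCs gave 2187 calls and untreated against uncultured HSCs 626. The main comparison gave 3395 in that fit.

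**Figure D1:**
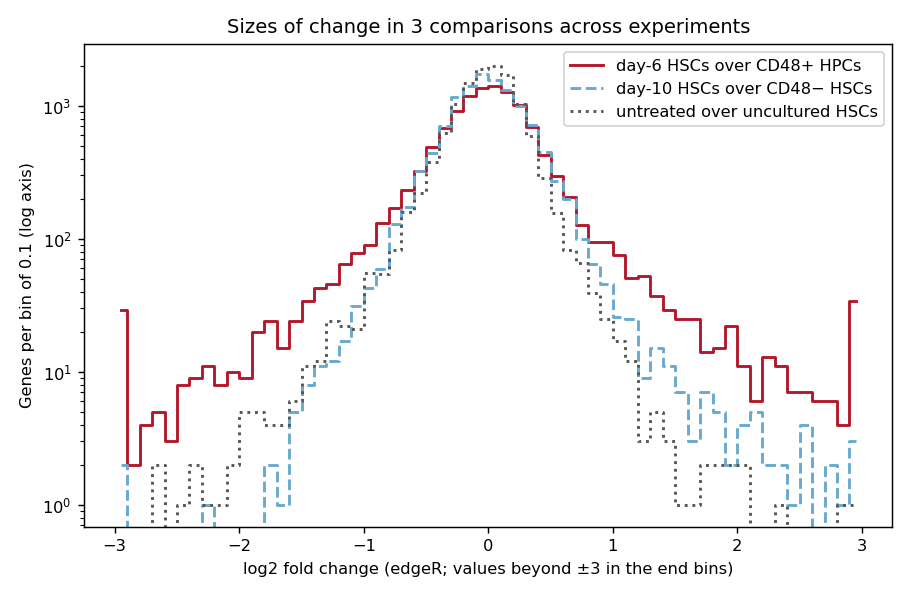
Number of genes (log axis) by log2 fold change for day-6 HSCs over CD48+ HPCs (red), day-10 HSCs over CD48- HSCs (blue, dashed) and untreated over uncultured HSCs (black, dotted). The red curve is the widest, with a standard deviation of 0.599, against 0.381 for day-10 over CD48- HSCs and 0.326 for untreated over uncultured HSCs.

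Because HSCs with the CD48- gate were sorted at day 10 in both experiments, the contrast can also be built within experiments, as day-6 over day-10 HSCs plus CD48- HSCs over CD48+ HPCs, with experiment as a term in a fit of 18 libraries that treats day-10 HSCs and CD48- HSCs as the same cells. In that fit 1152 of 13096 genes (8.80%) passed the threshold, 548 higher (4.18%) and 604 lower (4.61%) in day-6 HSCs, and 598 (4.57%) differed at least 2-fold. A total of 983 genes were called in the same direction in both fits (7.84% of the 12546 tested; 478 higher, 3.81%, and 505 lower, 4.03%), which is 24.8% of the 3961 calls and 85.3% of the 1152. Of the 864 called genes that differed at least 2-fold, 459 (53.1%) were called in both fits and 852 (98.6%) kept their sign with experiment as a term. Of all 3960 called genes with a value in both fits, 490 took the opposite sign, 1 of them past the threshold. Both fits use the libraries of the direct comparison, and the second takes the day-10 over CD48- difference away from the direct one. Agreement between them is therefore no separate evidence. Counts in both fits given below stand against the shares of all tested genes called in both. In the fit of 4 groups, day-6 against day-10 HSCs gave 3813 calls (29.1%; 12.9% higher and 16.3% lower at day 6), CD48- HSCs against CD48+ HPCs gave 3838 (29.3%; 13.9% higher and 15.4% lower in CD48- HSCs) and day-10 against CD48- HSCs gave 1804 (13.8%).

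Genes known to be selective for HSCs rose more often than they fell. Of 57 tested, 27 rose in day-6 HSCs (47.4%, against 15.3% of all genes tested), 9 fell and 21 did not pass, with a median log2 change of 0.46 against 0.00 for all genes. When experiment was a term 20 rose and 2 fell, and 19 rose in both fits. Vwf (NCBI Gene 22371, chr6:125552935-125686679 in mm10), which encodes von Willebrand factor and marks platelet-biased HSCs, had 620.4, 661, 817 and 558 CPM in the day-6 HSC libraries, against 147, 114, 145 and 161 CPM in the CD48+ HPC libraries. Every day-6 HSC library lay above every HPC library. The log2 change was 2.22 ± 0.13 (edgeR adjusted p = 9.05e-07), and it was 2.15 (edgeR adjusted p = 3.17e-05) with experiment as a term. Mecom (Gene 14013, chr3:29951296-30509783), whose product EVI1 is a transcription factor needed for HSC self-renewal, had 505, 565, 533 and 538 CPM in the day-6 HSC libraries, against 227, 227, 299.7 and 228 CPM in the CD48+ HPC libraries. HPC replicate 3 stood above the other HPC libraries, yet well below every day-6 library, and the log2 change was 1.12 ± 0.09 (edgeR adjusted p = 8.9e-06). Mmrn1, which encodes the platelet protein multimerin 1, averaged 135 ± 13.2 CPM in day-6 HSCs and 44.8 ± 3.20 CPM in CD48+ HPCs (SD, n = 4 each), a log2 change of 1.59 ± 0.09 (edgeR adjusted p = 6.81e-07). Cdkn1c, which encodes the CDK inhibitor p57 that is typical of dormant HSCs, averaged 16.7 ± 2.72 CPM in day-6 HSCs and 8.26 ± 1.87 CPM in CD48+ HPCs, a change of 1.02 ± 0.19 (edgeR adjusted p = 0.00233). Vwf, Mecom, Mmrn1 and Cdkn1c rose in both fits. In the fit with experiment as a term Cdkn1c lost its call in 9 of the 18 fits that left out 1 library, with a log2 change between 1.09 and 1.40.

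Not all HSC genes followed. The gate gene Procr had 64.3, 65.4, 72.7 and 67.1 CPM in the day-6 HSC libraries, against 42.7, 50.1, 39.6 and 51.1 CPM in the CD48+ HPC libraries, and the groups did not overlap. Its log2 change was 0.55 ± 0.10 (edgeR adjusted p = 0.00157), but with experiment as a term it was 0.77 (edgeR adjusted p = 0.054), and past the threshold in 5 of the 18 fits that left out 1 library. Slamf1, which encodes the gate marker CD150, differed by 0.27 ± 0.12 (edgeR adjusted p = 0.104), and its libraries overlapped. Hlf, a transcription factor that marks HSCs, averaged 469 ± 9.31 CPM in day-6 HSCs and 546 ± 107 CPM in CD48+ HPCs and differed by -0.23 ± 0.12 (edgeR adjusted p = 0.168); its sign turned to 0.37 (edgeR adjusted p = 0.415) with experiment as a term. Without CD48+ HPC replicate 1, Hlf passed the threshold as lower, at -0.35, and without day-6 replicate 1 Slamf1 passed as higher, at 0.34. Slc22a3, an organic cation transporter, fell in both fits, with 30.2, 28.5, 45.9 and 37.2 CPM in the day-6 HSC libraries, against 107, 128, 64.7 and 121 CPM in the CD48+ HPC libraries and a log2 change of -1.57 ± 0.21 (edgeR adjusted p = 0.000223). Hemgn, a nuclear protein of HSCs and erythroid cells, fell by 1.10 on the log2 scale and Msi2, an RNA-binding regulator of HSC renewal, by 0.42. Neither passed when experiment was a term, at -0.42 for Hemgn and -0.02 for Msi2. Hemgn stood at 91.1 CPM in CD48- HSC replicate 3, against 16.4 to 19.2 CPM in the other CD48- HSC libraries, and without that library it passed as lower with experiment as a term too, at -1.43 (edgeR adjusted p = 0.0043). The mean log2(CPM + 1) over the HSC genes was 6.28 ± 0.0428 in day-6 HSCs and 5.77 ± 0.0920 in CD48+ HPCs (SD, n = 4 each). Untreated HSCs stood above both, at 7.03 ± 0.0320 (n = 4).

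**Figure D2:**
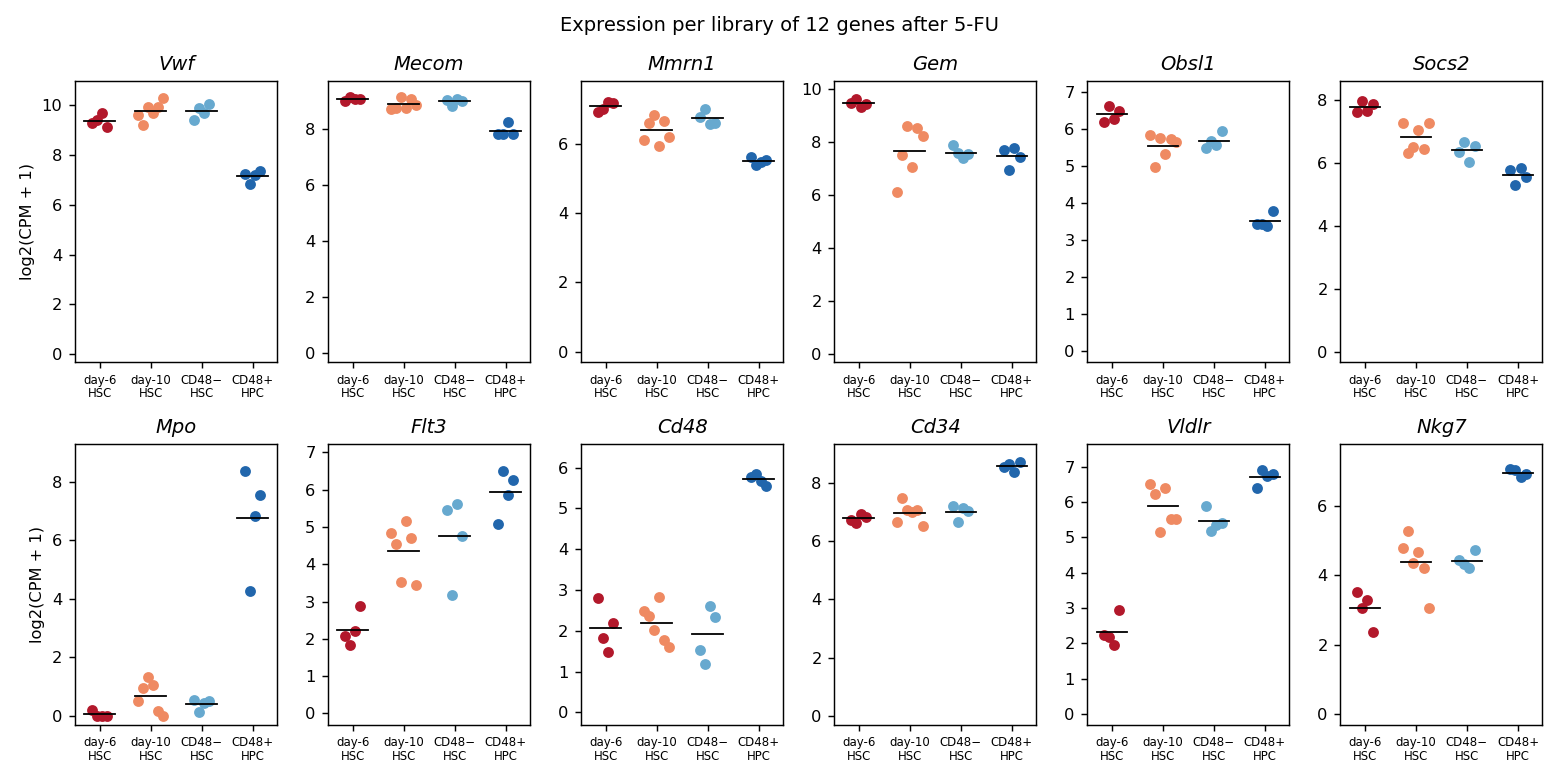
log2(CPM + 1) of 12 genes in each library (points; line, mean) of day-6 HSCs, day-10 HSCs, CD48- HSCs and CD48+ HPCs, on axes that each start near 0. Vwf sits between 558 and 817 CPM in day-6 HSCs and between 114 and 161 CPM in CD48+ HPCs; Vldlr and Flt3 are lowest in day-6 HSCs, and Cd48 is as low in the day-10 HSC sorts as at day 6.

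Platelet and megakaryocyte genes split. Of 25 tested, 8 rose (32%, against 15.3% of all genes) and 5 fell (20%, near the 16.3% of all genes). Their median log2 change was 0.00, and in both fits 3 rose and 2 fell. Gng11, a G-protein subunit of platelets, averaged 21.6 ± 3.36 CPM in day-6 HSCs and 11.2 ± 1.46 CPM in CD48+ HPCs and rose by 0.94 ± 0.16 (edgeR adjusted p = 0.00107). Itga2b, the integrin chain CD41, had 17.2, 14, 27.4 and 22.9 CPM in the day-6 HSC libraries, against 68.8, 65.8, 34.1 and 55.2 CPM in the CD48+ HPC libraries, and Selp, which encodes P-selectin, had 104, 79.1, 121 and 102 CPM in the day-6 HSC libraries, against 251, 329, 228 and 281 CPM in the CD48+ HPC libraries. Neither gene overlapped between the groups, and both fell, by 1.46 for Itga2b (edgeR adjusted p = 0.000922) and by 1.43 for Selp (edgeR adjusted p = 2.39e-05). The Selp difference lay between days: day-10 HSCs averaged 369 ± 89.3 CPM and CD48- HSCs 289 ± 27.5 CPM, close to the HPCs, and untreated HSCs 20.3 ± 8.29 CPM.

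Genes of cytokine signalling moved both ways. Of 35 receptors and feedback inhibitors tested, 6 rose (17.1%, near the 15.3% of all genes) and 17 fell (48.6%, against 16.3% of all genes). In both fits 4 rose and 12 fell. Cish, an inhibitor that STAT5 induces, had 176, 246, 135 and 179.9 CPM in the day-6 HSC libraries, against 40.3, 23.6, 32.3 and 29.6 CPM in the CD48+ HPC libraries. Socs2, another inhibitor of the same kind, had 195, 251, 201 and 235 CPM in the day-6 HSC libraries, against 54.0, 38.7, 57.0 and 46.2 CPM in the CD48+ HPC libraries. The groups were far apart for each, and the log2 changes were 2.54 ± 0.19 (edgeR adjusted p = 3.64e-06) for Cish and 2.16 ± 0.12 (edgeR adjusted p = 9.1e-07) for Socs2. Socs3, the feedback inhibitor of IL-6-type and G-CSF signals, went the other way, with 4.70, 8.19, 5.19 and 6.15 CPM in the day-6 HSC libraries, against 44.5, 61.3, 40.6 and 76.8 CPM in the CD48+ HPC libraries. The groups did not overlap, and the log2 change was -3.21 ± 0.23 (edgeR adjusted p = 3.27e-06). Csf3r, the receptor for G-CSF, had 112, 132, 97.3 and 122 CPM in the day-6 HSC libraries, against 369.8, 469, 371 and 399.7 CPM in the CD48+ HPC libraries, a log2 change of -1.81 ± 0.11 (edgeR adjusted p = 9.1e-07). Socs3 averaged 69.8 ± 33.1 CPM in day-10 HSCs, 42.3 ± 13.3 CPM in CD48- HSCs and 13.0 ± 8.64 CPM in untreated HSCs, so day-6 HSCs had the lowest mean of these groups.

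Most progenitor genes fell. Of 27 tested, 22 fell in day-6 HSCs (81.5%, against 16.3% of all genes) and the other 5 also had negative log2 changes, with a median of -1.45. With experiment as a term 20 fell, the same 20 in both fits, and the median was -1.15. Cd48 (Gene 12506, chr1:171681420-171705257), the gene that the gates divide, had 6.02, 2.54, 1.81 and 3.53 CPM in the day-6 HSC libraries, against 53.7, 56.7, 49.7 and 45.8 CPM in the CD48+ HPC libraries. No library overlapped, and the log2 change of -3.91 ± 0.26 (edgeR adjusted p = 1.63e-06) checks the sort and is no finding. Flt3 (Gene 14255, chr5:147330741-147400489), the cytokine receptor of multipotent progenitors, had 3.23, 2.54, 3.62 and 6.30 CPM in the day-6 HSC libraries, against 32.9, 89.3, 57.3 and 75.3 CPM in the CD48+ HPC libraries. The groups did not overlap, although the HPC libraries differed among themselves, and the log2 change was -4.04 ± 0.34 (edgeR adjusted p = 9.17e-06). Cd244, a SLAM receptor whose ligand is CD48, had 1.61, 0.565, 1.21 and 2.30 CPM in the day-6 HSC libraries, against 48.5, 68.1, 35.4 and 49.4 CPM in the CD48+ HPC libraries, a log2 change of -5.16 ± 0.30 (edgeR adjusted p = 9.1e-07). Cd34, a sialomucin of progenitors, had 104, 98.6, 120.0 and 114 CPM in the day-6 HSC libraries, against 369.5, 400.2, 332 and 424 CPM in the CD48+ HPC libraries. This gene varied little within a group, and its log2 change was -1.81 ± 0.09 (edgeR adjusted p = 4.13e-07). Nkg7, a granule membrane protein of cytotoxic cells, had 10.4, 7.34, 8.69 and 4.15 CPM in the day-6 HSC libraries, against 131, 129, 112 and 119 CPM in the CD48+ HPC libraries, and fell by 4.00 (edgeR adjusted p = 2.13e-07). Muc13, a transmembrane mucin, had 134, 101, 139.7 and 126 CPM in the day-6 HSC libraries, against 439, 430.3, 407 and 437 CPM in the CD48+ HPC libraries, and fell by 1.78 (edgeR adjusted p = 5.45e-07). Plac8, a marker of early progenitors, had 18.3, 11.0, 27.4 and 16.6 CPM in the day-6 HSC libraries, against 150.4, 187, 134 and 171 CPM in the CD48+ HPC libraries. All these genes kept the call with experiment as a term, which was a condition of choice for those named among the largest falls.

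Levels in the other 5-FU groups differed among progenitor genes. Cd48 averaged 3.72 ± 1.5 CPM in day-10 HSCs and 3.07 ± 1.79 CPM in CD48- HSCs, near the day-6 level. Muc13 averaged 428 ± 69.7 CPM in day-10 HSCs and 319.9 ± 56.8 CPM in CD48- HSCs, nearer the HPCs, and Plac8 averaged 220.2 ± 152 CPM in day-10 HSCs, with a wide spread over its 6 libraries. Over the whole list the mean log2(CPM + 1) was 5.07 ± 0.235 in day-6 HSCs and 6.82 ± 0.127 in CD48+ HPCs, against 6.00 ± 0.218 in day-10 HSCs (n = 6), 6.05 ± 0.264 in CD48- HSCs and 5.34 ± 0.0909 in untreated HSCs.

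**Figure D3:**
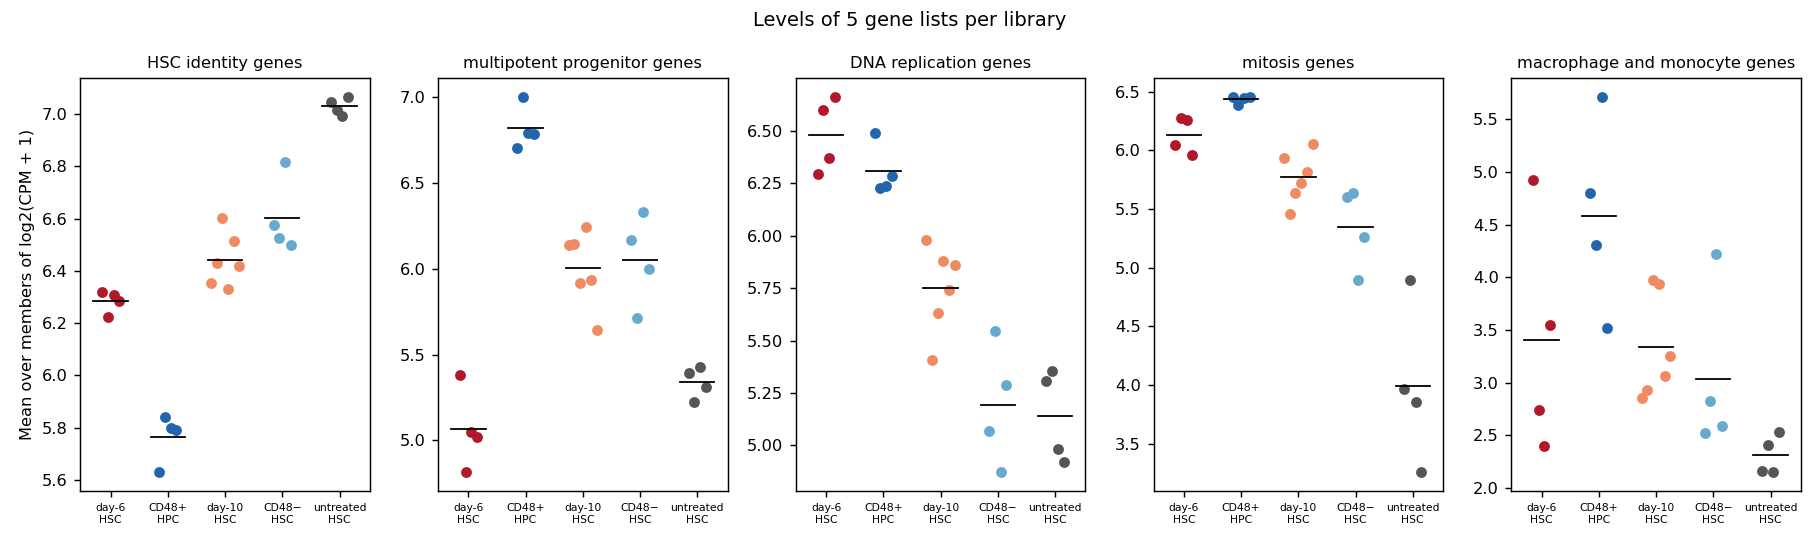
Mean log2(CPM + 1) over the members of 5 gene lists in each library (points; line, mean of the group). Progenitor genes sit between 4.82 and 5.38 in day-6 HSCs, all under the 6.70 to 7.0 of CD48+ HPCs, and the macrophage panel shows day-6 HSC replicate 1 at 4.92 and CD48+ HPC replicate 3 at 5.71, the highest libraries of their groups.

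Most myeloid genes tested fell too. Of 25 granule and transcription factor genes tested, 14 fell (56%, against 16.3% of all genes) and 1 rose. In both fits 8 fell, against 4.03% of all genes, and the median log2 change was -0.65 in the direct comparison. Mpo (Gene 17523, chr11:87793784-87804412), which encodes the myeloperoxidase of granulocyte precursors, had 1 read over the 4 day-6 HSC libraries. The CD48+ HPC libraries had between 202 and 3970 reads, at 333, 18.2, 113 and 189 CPM. The level in CD48+ HPCs was 4770-fold that in day-6 HSCs, with a 95% counting interval of 856 to 188437, and the HPC libraries differed widely among themselves. Prtn3 (Gene 19152), which encodes proteinase 3 of the same granules, had 12.2, 13.1, 13.8 and 12 CPM in the day-6 HSC libraries, against 89.8, 99.9, 54.7 and 97.2 CPM in the CD48+ HPC libraries. The groups did not overlap, and the log2 change was -2.74 ± 0.18 (edgeR adjusted p = 1.63e-06), or -2.21 when experiment was a term. Serpinb1a, an inhibitor of such proteases, averaged 5.03 ± 1.84 CPM in day-6 HSCs and 37.2 ± 3.87 CPM in CD48+ HPCs, a log2 change of -2.88 ± 0.21 (edgeR adjusted p = 3.72e-06). The list's median does not depend on how the change of Mpo is bounded.

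The start regions of Mpo and Prtn3, which fell, and of Mmrn1, which rose, are shown to give the sequence beside which such differences stand. Each run is the 250 bases before the RefSeq start on the plus strand of GRCm38.p6, and capitals mark a match to a motif of the factors searched, PU.1 for Mpo and Prtn3 and the CCAAT box for Mmrn1.
Mpo, chr11:87793534-87793783: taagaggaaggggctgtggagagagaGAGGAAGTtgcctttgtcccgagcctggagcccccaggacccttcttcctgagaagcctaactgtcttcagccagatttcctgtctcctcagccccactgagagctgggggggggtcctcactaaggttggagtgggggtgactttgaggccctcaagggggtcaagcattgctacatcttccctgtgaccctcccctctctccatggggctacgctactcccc
Prtn3, chr10:79879417-79879666: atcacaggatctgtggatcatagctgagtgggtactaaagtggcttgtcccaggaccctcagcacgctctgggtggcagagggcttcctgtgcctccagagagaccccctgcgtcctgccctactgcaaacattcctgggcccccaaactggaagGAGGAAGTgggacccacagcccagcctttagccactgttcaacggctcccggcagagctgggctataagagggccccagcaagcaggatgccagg
Mmrn1, chr6:60944067-60944316: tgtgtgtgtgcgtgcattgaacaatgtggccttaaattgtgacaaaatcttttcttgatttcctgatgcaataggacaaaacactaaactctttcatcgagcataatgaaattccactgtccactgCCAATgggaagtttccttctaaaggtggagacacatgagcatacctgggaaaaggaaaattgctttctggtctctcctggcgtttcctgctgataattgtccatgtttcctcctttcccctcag

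Over RefSeq windows of 300 bases (250 before to 50 after the start), which 10087 of the 12546 tested genes had, motifs were searched as exact letters on both strands. The PU.1 motif GAGGAAGT stood in 2.91% of the windows of genes that rose and 3.51% of those of genes that fell, against 3.17% of all tested genes. The CCAAT box CCAAT stood in 36.1% of windows of genes that rose and 40.4% of genes that fell, against 39.0% of all tested. The GATA motif AGATAA stood in 5.70% of windows of genes that rose and 7.5% of genes that fell, against 6.40% of all tested. The AP-1 motif TGACTCA stood in 3.82% of windows of genes that rose and 3.09% of genes that fell, against 3.19% of all tested, and the E2F motif TTTCGCGC in 0.712% of those that rose and 0.484% of those that fell, against 0.704%. Of genes called in both fits, 363 that rose and 395 that fell had a window. Among these the PU.1 motif stood in 2.20% that rose and 5.06% that fell, the CCAAT box in 31.7% and 41.0%, the GATA motif in 6.06% and 8.35%, the AP-1 motif in 2.48% and 3.80% and the E2F motif in 0.275% and 0.506%, so that the order for AP-1 and E2F was the opposite of that over all called genes. A match describes the letters of a window and nothing about binding. The shares were not tested against each other.

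**Figure D4:**
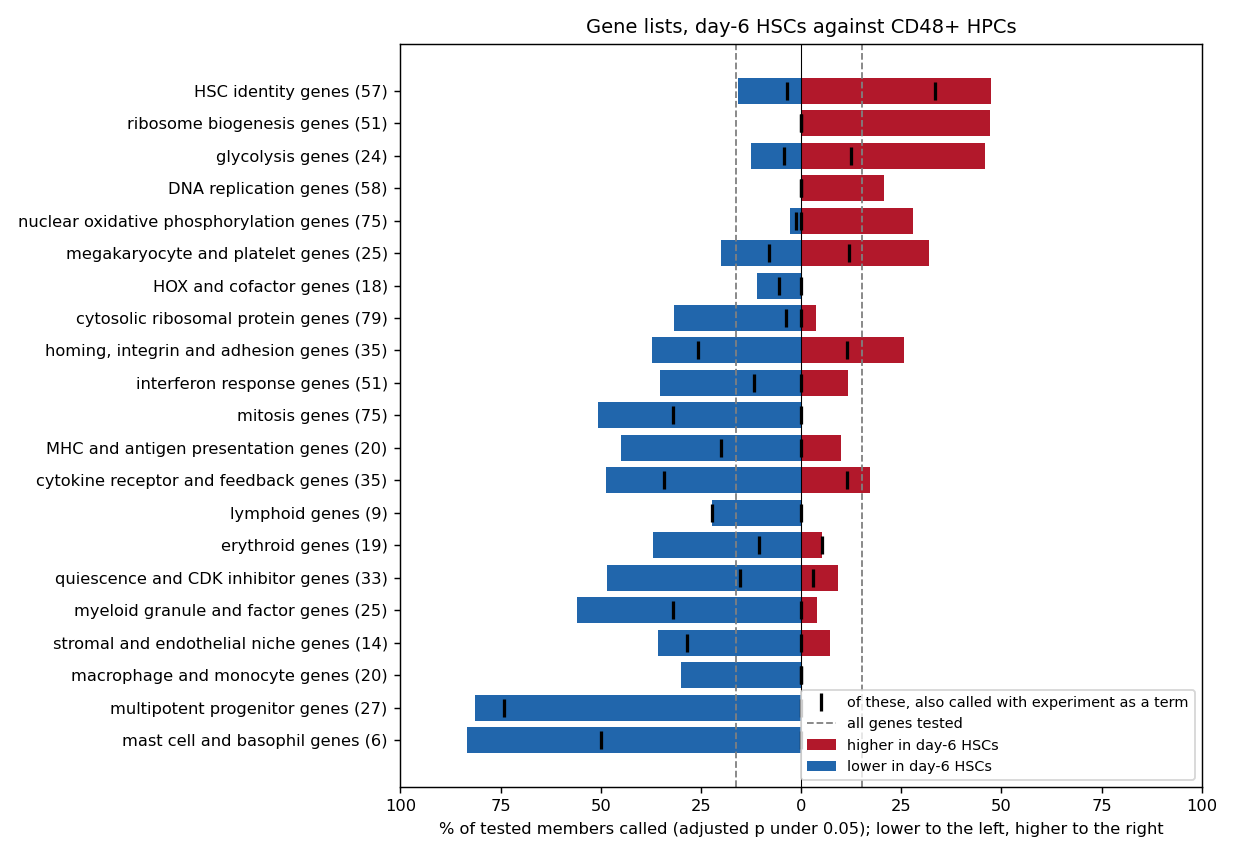
Percent of the tested members of each gene list (number in brackets) that were higher (red, right) or lower (blue, left) in day-6 HSCs; black ticks mark the percent also called with experiment as a term, and dashed lines the shares of all genes tested, 15.3% higher and 16.3% lower. HSC identity genes reach 47.4% higher and multipotent progenitor genes 81.5% lower, and the ticks of DNA replication and ribosome biogenesis genes sit at 0.

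Among genes of other blood lineages, more fell than rose in day-6 HSCs. Of 19 erythroid genes tested, 7 fell (36.8%, against 16.3% of all genes) and 1 rose, a count of 12 fallen without day-6 replicate 1 or without HPC replicate 3, and 11 without day-6 replicate 2. When experiment was a term 2 fell and 2 rose, or 6 fell and 1 rose without CD48- HSC replicate 3, and 2 fell and 1 rose in both fits. Gata1, the erythroid and megakaryocyte transcription factor, had 3.38, 4.10, 4.10 and 4.30 CPM in the day-6 HSC libraries, against 27.6, 34.9, 17.6 and 46.5 CPM in the CD48+ HPC libraries, a log2 change of -2.99 ± 0.28 (edgeR adjusted p = 1.88e-05). Mfsd2b, a sphingosine-1-phosphate exporter of red cells and platelets, fell by 3.12 (edgeR adjusted p = 0.000133), and Car2, a carbonic anhydrase, averaged 756 ± 53.9 CPM in day-6 HSCs and 402 ± 13.3 CPM in CD48+ HPCs and rose by 0.90 ± 0.06 (edgeR adjusted p = 2.5e-06). Dntt, the DNA polymerase TdT of lymphoid progenitors, had no read in any day-6 HSC library and 13.1, 19.8, 4.77 and 7.88 CPM in the HPC libraries, at least 27.0-fold higher in CD48+ HPCs against a floor of 3 counts per library. Cpa3, the carboxypeptidase of mast cells and their progenitors, averaged 0.222 ± 0.192 CPM in day-6 HSCs and 8.38 ± 3.43 CPM in CD48+ HPCs, a log2 change of -5.23 ± 0.55 (edgeR adjusted p = 4.99e-05). Of 6 mast cell and basophil genes tested 5 fell (83.3%), and 3 without HPC replicate 2.

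Marker lists of other cell types were also summed in each library. The 24 macrophage and monocyte markers summed to between 199 and 2049 CPM in day-6 HSC libraries, with replicate 1 highest, and to between 440.2 and 2846 CPM in CD48+ HPC libraries, with replicate 3 highest. Each of the 24 was detected in both groups. Of 20 tested, 6 fell in day-6 HSCs (30%, against 16.3% of all genes). Among them were Cd5l with 10.9, 5.79, 2.66 and 15.5 CPM in the day-6 HSC libraries, against 42.8, 15.7, 69.8 and 12.6 CPM in the CD48+ HPC libraries, a log2 change of -2.05 ± 0.58 (edgeR adjusted p = 0.0194), and Trf with 46.6 ± 25.8 CPM in day-6 HSCs and 124 ± 69.4 CPM in CD48+ HPCs. The groups overlapped for both genes. The count was 18 without day-6 replicate 1, 1 without HPC replicate 3, 1 without day-6 replicate 2, 1 without day-6 replicate 3 and 3 without day-6 replicate 4, and Cd5l and Trf each lost the call without HPC replicate 3, day-6 replicate 2 or day-6 replicate 3, Trf also without day-6 replicate 4. Neither gene passed with experiment as a term, though Cd5l did in 5 of the 18 fits that left out 1 library. The 34 erythroid markers summed to between 1322 and 1557 CPM in day-6 HSCs and between 1071 and 1295 CPM in CD48+ HPCs, with Slc4a1, Kel and Car1 among 6 at 0 in day-6 HSCs. Car2 alone made up 692 to 822 CPM of that sum in day-6 HSCs and 387 to 416 CPM in CD48+ HPCs, and it was high in untreated HSCs as well, at 722 to 935 CPM. The 29 lymphoid markers summed to between 342 and 416 CPM in day-6 HSCs and between 484 and 619 CPM in CD48+ HPCs, with Rag1, Cd3e and Ms4a1 among the 11 at 0 in day-6 HSCs, and the 15 mast cell and basophil markers to between 214 and 224 CPM in day-6 HSCs and between 287 and 299 CPM in CD48+ HPCs, with Fcer1a, Mcpt8 and Prss34 among the 8 at 0 in day-6 HSCs. The 22 stromal and endothelial markers summed to between 108 and 167 CPM in day-6 HSCs and between 180.5 and 275 CPM in CD48+ HPCs, with Col3a1, Dcn and Lum at 0 in day-6 HSCs. Their part in the results was not tested. Without day-6 replicate 1 and HPC replicate 3, which led the macrophage sums, 26 HSC genes rose and 9 fell, 26 progenitor genes fell, and 63 of the 63 called genes named here kept their call.

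The mean level of cell-cycle genes was above that of untreated HSCs in both groups. The mean log2(CPM + 1) of 75 mitosis genes was 6.13 ± 0.158 in day-6 HSCs and 6.43 ± 0.0335 in CD48+ HPCs, against 3.99 ± 0.674 in untreated HSCs (n = 4 each), and that of 58 DNA replication genes was 6.48 ± 0.177 in day-6 HSCs and 6.31 ± 0.124 in CD48+ HPCs, against 5.14 ± 0.221 in untreated HSCs. Of the 75 mitosis genes, 38 fell in day-6 HSCs (50.7%, against 16.3% of all genes) with a median log2 change of -0.32. In both fits 24 fell, against 4.03% of all genes. Between like cells the list moved by as much. Its median was -0.47 for untreated over uncultured HSCs, with 0 called, and 0.41 for day-10 over CD48- HSCs, with 6 higher. Kif11, the spindle motor, had 112, 122, 122 and 101 CPM in the day-6 HSC libraries, against 163, 166, 176 and 163 CPM in the CD48+ HPC libraries, a log2 change of -0.55 ± 0.08 (edgeR adjusted p = 0.000316). Cenpa, the centromeric histone, averaged 61.9 ± 9.61 CPM in day-6 HSCs and 118 ± 18.7 CPM in CD48+ HPCs, a change of -0.94 ± 0.13 (edgeR adjusted p = 0.000375), and Ect2, a cytokinesis factor, averaged 77.5 ± 9.54 CPM in day-6 HSCs and 123 ± 6.64 CPM in CD48+ HPCs, a change of -0.68 ± 0.09 (edgeR adjusted p = 0.000211). In the fit with experiment as a term Cenpa lost its call in 10 of the 18 fits that left out 1 library. None of these differences reached 2-fold. Mki67, the proliferation marker Ki-67, differed by -0.18 ± 0.06 (edgeR adjusted p = 0.0277), a call that ended without HPC replicate 4 or any of day-6 replicates 1, 3 and 4. Cdk1, the mitotic kinase, had 113, 135, 132 and 98.8 CPM in the day-6 HSC libraries, against 128, 93.5, 123 and 114 CPM in the CD48+ HPC libraries; the groups overlapped, and it differed by 0.05 ± 0.12 (edgeR adjusted p = 0.752). The count of fallen mitosis genes was 3 when all 30 libraries shared 1 estimate of the spread, and with experiment as a term it was 33, between 17 and 48 without 1 library, 4 with all 30 libraries, and 6 without day-6 replicate 1, HPC replicate 3 and day-10 replicates 4 and 6.

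Replication genes had small positive changes in the direct comparison and negative ones in the other fit. Of 58 tested, 12 rose (20.7%, near the 15.3% of all genes) with a median log2 change of 0.17. The count was 6 by intron reads and with all 30 libraries in 1 fit, 18 without HPC replicate 1 or day-6 replicate 1, 7 without HPC replicate 2 or day-6 replicate 2 and 6 without day-6 replicate 4. Mcm6, a subunit of the replicative helicase, had 490.2, 566, 487 and 598 CPM in the day-6 HSC libraries, against 440.1, 348, 349 and 351 CPM in the CD48+ HPC libraries, a log2 change of 0.52 ± 0.09 (edgeR adjusted p = 0.00195). The DNA polymerase delta subunits Pold2 and Pold3 changed by 0.48 ± 0.10 (edgeR adjusted p = 0.00347) and 0.43 ± 0.10 (edgeR adjusted p = 0.00588). With experiment as a term 4 of the 58 fell, the median was -0.46, and Mcm6, Pold2 and Pold3 took negative values of -0.25, -0.17 and -0.05. Day-10 over CD48- HSCs gave 17 of 58 replication genes higher, with a median of 0.56. Tyms, which encodes the thymidylate synthase that 5-FU inhibits, had 97.3, 125, 102 and 144 CPM in the day-6 HSC libraries, against 103, 88.7, 93.0 and 93.8 CPM in the CD48+ HPC libraries; it differed by 0.30 ± 0.11 (edgeR adjusted p = 0.0644) in the direct comparison and by -0.45 (edgeR adjusted p = 0.183) with experiment as a term. By DESeq2, and without day-6 replicate 1 or 3, Tyms passed as higher.

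Biosynthetic genes moved both ways. Of 51 ribosome biogenesis genes, 24 rose (47.1%, against 15.3% of all genes) with a median log2 change of 0.32. The count was 36 without HPC replicate 1, 14 without HPC replicate 2, HPC replicate 4 or day-6 replicate 3 and 15 without day-6 replicate 4. Polr1a, the large subunit of RNA polymerase I, had 196, 213, 215 and 204 CPM in the day-6 HSC libraries, against 166, 129, 134 and 141 CPM in the CD48+ HPC libraries, a log2 change of 0.53 ± 0.08 (edgeR adjusted p = 0.000664) in the direct comparison and -0.16 (edgeR adjusted p = 0.594) with experiment as a term. With experiment as a term the list's median was -0.10, and day-10 over CD48- HSCs had a median of 0.40, with 8 of 51 higher. Of 75 nuclear genes of oxidative phosphorylation, 21 rose (28%, against 15.3% of all genes) and 2 fell (2.67%, against 16.3%). Their median was 0.12, and 1 fell in both fits. With experiment as a term the median was -0.08. For day-10 over CD48- HSCs it was 0.22, with 7 of 75 higher and 1 lower. Of 24 glycolysis genes, 11 rose (45.8%, against 15.3% of all genes) and 3 fell (12.5%, against 16.3%) with a median of 0.26. In both fits 3 rose and 1 fell. With experiment as a term their median was -0.03. For day-10 over CD48- HSCs it was 0.30, with 3 of 24 higher. Of 79 cytosolic ribosomal protein genes, 25 fell (31.6%, against 16.3% of all genes) and 3 rose (3.80%, against 15.3%) with a median of -0.14. Untreated over uncultured HSCs gave 11 of the 79 higher and 5 lower, against 0.636% and 0.898% of all genes. In both fits 3 fell, near the 4.03% of all genes. The number that fell was 42 without HPC replicate 3 and 13 of 66 tested by unique exon reads. By intron reads the direction turned, with 20 higher and a median of 0.38.

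Genes linked to cell-cycle exit fell more often than they rose in day-6 HSCs. Of 33 quiescence and CDK inhibitor genes tested, 16 fell (48.5%, against 16.3% of all genes) and 3 rose (9.09%, against 15.3%). Their median log2 change was -0.61, and 5 fell and 1 rose in both fits. Junb, a subunit of AP-1, had 22.3, 20.9, 12.4 and 9.68 CPM in the day-6 HSC libraries, against 50.3, 91.0, 63.5 and 100.0 CPM in the CD48+ HPC libraries, and Btg2, an antiproliferative gene, had 16.6, 10.7, 6.76 and 5.07 CPM in the day-6 HSC libraries, against 44.2, 79.5, 82.4 and 85.1 CPM in the CD48+ HPC libraries. The groups did not overlap for either gene. The log2 change was -2.23 ± 0.27 (edgeR adjusted p = 0.000154) for Junb and -2.90 ± 0.31 (edgeR adjusted p = 6.11e-05) for Btg2. In day-10 HSCs Junb averaged 88.6 ± 18.4 CPM and Btg2 95.3 ± 44.8 CPM, and in untreated HSCs they averaged 118 ± 54.4 CPM and 163 ± 67.2 CPM. Uncultured HSCs varied widely, with 89.4, 524, 72.5 and 76.6 CPM of Junb and 113, 279, 27.9 and 27.0 CPM of Btg2.

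Interferon-induced genes also fell more often than they rose. Of 51 tested, 18 fell (35.3%, against 16.3% of all genes) and 6 rose (11.8%, against 15.3%). Their median was -0.24, and 6 fell in both fits. Without HPC replicate 3 the number that rose was 10. Oas2, an antiviral oligoadenylate synthetase, had 44.8, 36.6, 31.4 and 30.6 CPM in the day-6 HSC libraries, against 75.7, 125, 197 and 122 CPM in the CD48+ HPC libraries, a log2 change of -1.87 ± 0.24 (edgeR adjusted p = 0.000228). The list's median was -1.16 with experiment as a term. Day-10 HSCs varied widely in this list, between 5.89 and 8.49 on the mean log2(CPM + 1) scale (n = 6), and without day-6 replicate 1, HPC replicate 3 and day-10 replicates 4 and 6 the median with experiment as a term was -0.32. Of 20 MHC and antigen presentation genes, 9 fell (45%) and 2 rose (10%), and 4 fell in both fits. By unique exon reads 7 of the 20 could be tested, of which 1 fell and 1 rose with a median of 0.047.

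Of 35 homing and adhesion genes, 13 fell (37.1%, against 16.3% of all genes) and 9 rose (25.7%, against 15.3%). In both fits 9 fell and 4 rose, against 4.03% and 3.81% of all genes. Itgal, the alpha chain of the integrin LFA-1, had 16.7, 13.3, 19.7 and 9.83 CPM in the day-6 HSC libraries, against 175, 144, 125 and 118 CPM in the CD48+ HPC libraries. The groups were apart by a wide margin, and the log2 change was -3.24 ± 0.19 (edgeR adjusted p = 9.1e-07). Cd53, a tetraspanin of blood cells, averaged 81.6 ± 24.5 CPM in day-6 HSCs and 303 ± 21.7 CPM in CD48+ HPCs, a change of -1.90 ± 0.17 (edgeR adjusted p = 1.28e-05). Of 18 HOX and cofactor genes tested, 2 fell (11.1%, under the 16.3% of all genes) and the other 16 did not pass. Without HPC replicate 4 or day-6 replicate 4, 1 fell, and by intron reads 2 rose. Of 14 stromal and endothelial genes tested, 5 fell (35.7%) and 1 rose (7.14%), and 3 fell without day-6 replicate 4. Of 9 lymphoid genes 2 fell (22.2%, near the 16.3% of all genes), or 5 without day-6 replicate 1.

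Further rises are given for genes that were called in both fits, did not overlap between the groups and had a log2 CPM averaging 5 or more in the higher group. Enah, an actin regulator, had 31.0, 48.4, 32.8 and 50.7 CPM in the day-6 HSC libraries, against 3.78, 2.16, 5.36 and 1.24 CPM in the CD48+ HPC libraries, a log2 change of 3.67 ± 0.33 (edgeR adjusted p = 1.67e-05). Slfn2, a Schlafen family gene needed for T cell quiescence in mice, had 72.8, 89.0, 82.6 and 71.8 CPM in the day-6 HSC libraries, against 8.98, 6.47, 13.6 and 6.98 CPM in the CD48+ HPC libraries, a change of 3.12 ± 0.20 (edgeR adjusted p = 1.33e-06). The deposited table lists Slfn2 under several entries, which were summed, and reads shared with its paralogs cannot be assigned with certainty. By intron reads Slfn2 changed by 0.20 on the log2 scale and did not pass. Obsl1, a cytoskeletal adaptor, had 71.8, 98.2, 75.5 and 89.1 CPM in the day-6 HSC libraries, against 9.82, 9.71, 9.43 and 12.7 CPM in the CD48+ HPC libraries. The groups were far apart, and the log2 change was 3.00 ± 0.13 (edgeR adjusted p = 2e-07). Gem (Gene 14579, chr4:11704447-11714993), a GTPase that inhibits voltage-gated calcium channels, had 705, 792, 640.1 and 701 CPM in the day-6 HSC libraries, against 206, 124, 220.3 and 171 CPM in the CD48+ HPC libraries, a change of 1.97 ± 0.15 (edgeR adjusted p = 4.53e-06). Its change was 1.63 (edgeR adjusted p = 0.0367) with experiment as a term, and there it lost its call in 11 of the 18 fits that left out 1 library. Xbp1, a transcription factor of the unfolded protein response, averaged 318 ± 61.0 CPM in day-6 HSCs and 60.6 ± 8.56 CPM in CD48+ HPCs, a change of 2.39 ± 0.14 (edgeR adjusted p = 9.1e-07). Chst2, a sulfotransferase, rose by 2.90, Nckap1, a subunit of the WAVE complex, by 2.21, Evc2, a ciliary protein of hedgehog signalling, by 2.12, Timp3, a metalloproteinase inhibitor, by 2.00, and Fhl1, a LIM-domain protein, by 2.00.

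Among the falls chosen by the same rule, Vldlr, a lipoprotein receptor, had 3.67, 3.53, 2.90 and 6.76 CPM in the day-6 HSC libraries, against 83.7, 119, 107 and 110.2 CPM in the CD48+ HPC libraries. The lowest HPC library stood far above the highest day-6 library, and the log2 change was -4.66 ± 0.21 (edgeR adjusted p = 2e-07). Tespa1, a signalling adaptor of thymocytes, had 3.52, 0.706, 0.966 and 3.07 CPM in the day-6 HSC libraries, against 58.9, 55.6, 43.9 and 51.8 CPM in the CD48+ HPC libraries, a change of -4.71 ± 0.32 (edgeR adjusted p = 1.97e-06). Ffar2, a receptor for short-chain fatty acids, averaged 1.68 ± 0.854 CPM in day-6 HSCs and 36.6 ± 18.3 CPM in CD48+ HPCs, a change of -4.45 ± 0.41 (edgeR adjusted p = 2.04e-05). Spns3, a sphingolipid transporter family member, averaged 5.56 ± 1.06 CPM in day-6 HSCs and 48 ± 6.52 CPM in CD48+ HPCs, a change of -3.12 ± 0.16 (edgeR adjusted p = 4.89e-07). The call with experiment as a term and the lack of overlap were conditions of that rule and are no result.

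**Figure D5:**
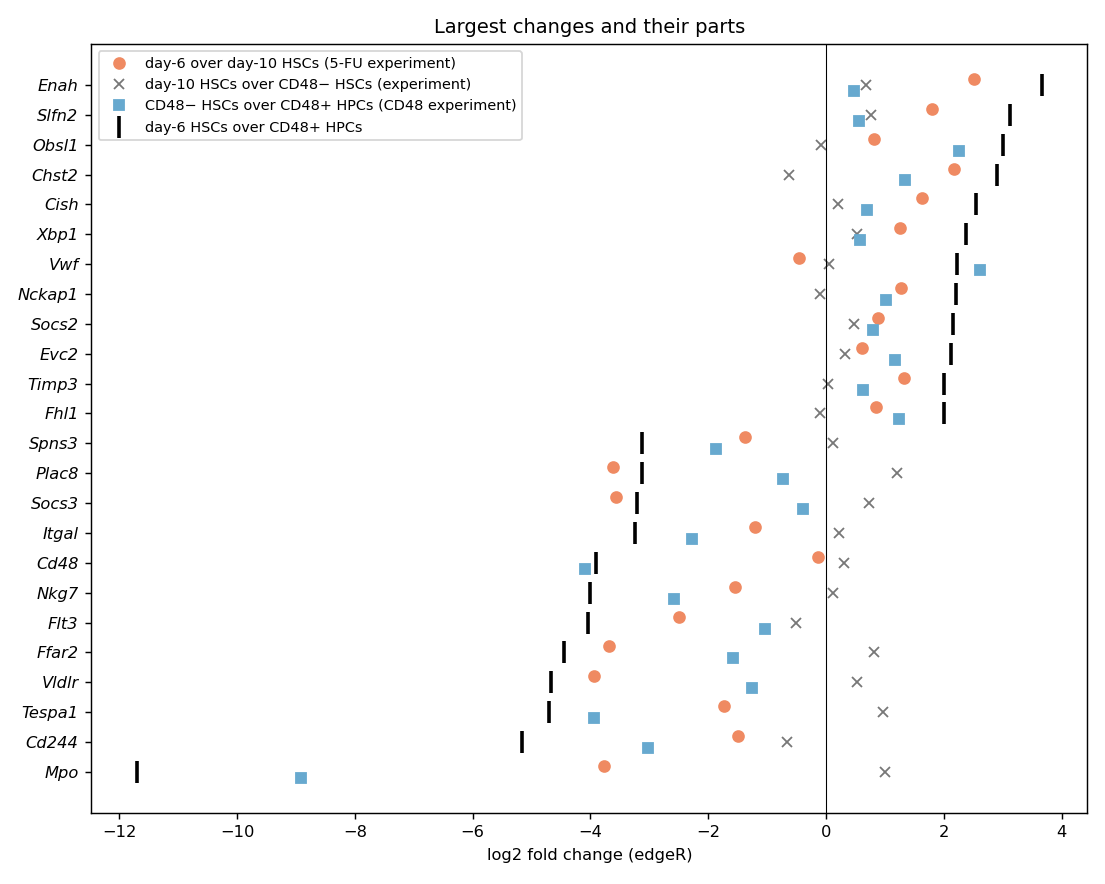
log2 fold change of the genes called in both fits that rose most (12) or fell most (12), with no overlap and a log2 CPM averaging 5 or more in the higher group (black bars, day-6 HSCs over CD48+ HPCs) with the parts it can be built from, day-6 over day-10 HSCs (orange), day-10 over CD48- HSCs across experiments (grey crosses) and CD48- HSCs over CD48+ HPCs (blue). Vwf and Cd48 lie with the blue squares, at 2.61 and -4.09, and Vldlr and Socs3 with the orange points, at -3.93 and -3.56; the values of Mpo rest on 1 read in day-6 HSCs and depend on the prior count.

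The direct difference is the sum of a day part, an experiment part and a CD48 part, and the genes with the largest differences were made up differently. For Vwf the log2 changes were -0.45 for day-6 over day-10 HSCs, 0.06 for day-10 over CD48- HSCs and 2.61 for CD48- HSCs over CD48+ HPCs. Cd48 gave -0.13, 0.30 and -4.09 in that order, so nearly the whole difference stood on the CD48 part, which the gates fix and which is no finding. Mecom gave 0.14, -0.08 and 1.04, and Serpinb1a -0.42, 0.22 and -2.70. Other genes stood on the day. Gem gave 1.53, 0.32 and 0.10, Socs3 -3.56, 0.74 and -0.40, Vldlr -3.93, 0.53 and -1.26, and Junb -2.47, -0.18 and 0.42. Enah gave 2.51, 0.68 and 0.47. Obsl1 was unlike these, with 0.81, -0.08 and 2.26, so that its largest part was the CD48 part. These parts share libraries with the direct comparison and with each other, so they are its breakdown and no separate evidence.

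Of all genes, 12.9% were higher and 16.3% lower at day 6 than at day 10, and 13.9% higher and 15.4% lower in CD48- HSCs. HSC identity genes had a median of -0.31 for day-6 over day-10 HSCs, with 24 of 57 lower and 7 higher. For CD48- HSCs over CD48+ HPCs their median was 0.83, with 43 of 57 higher and 1 lower. Progenitor genes had medians of -1.10 and -0.43 in these parts. Of 27, 19 were lower and 1 higher at day 6, and 11 were lower and 2 higher in CD48- HSCs. Mitosis genes had medians of 0.32 and -1.10, with 23 of 75 higher at day 6 and 74 lower in CD48- HSCs. Replication genes had medians of 0.72 and -1.13, with 53 of 58 higher at day 6 and 58 lower in CD48- HSCs. The experiment part had medians of 0.43 for mitosis genes and 0.58 for replication genes.

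The 4 called genes with the largest direct differences among those of opposite sign with experiment as a term were Serpina3f, Serpina3g, Slfn9 and Nop10. A large experiment part follows from that choice and is no result; it was 2.36 for Serpina3f, 1.10 for Serpina3g, 1.12 for Slfn9 and 1.09 for Nop10. Serpina3f, a serine protease inhibitor, had 107, 111, 76.4 and 69.6 CPM in the day-6 HSC libraries, against 17.6, 15.4, 47.0 and 14.8 CPM in the CD48+ HPC libraries, a change of 1.94 ± 0.33 (edgeR adjusted p = 0.0014), and -0.43 with experiment as a term. Serpina3g, a close paralog, averaged 1381 ± 94.2 CPM in day-6 HSCs and 711 ± 66.2 CPM in CD48+ HPCs, Slfn9, another Schlafen gene, averaged 247 ± 60.4 CPM in day-6 HSCs and 124 ± 8.85 CPM in CD48+ HPCs, and Nop10, a subunit of small nucleolar ribonucleoproteins, averaged 109 ± 9.25 CPM in day-6 HSCs and 56.6 ± 5.92 CPM in CD48+ HPCs. Their direct log2 changes were 0.95, 0.98 and 0.94, and with experiment as a term they were -0.16, -0.16 and -0.15. For Serpina3f, Serpina3g and Slfn9 that sign rested on day-10 HSC replicate 6, which had 917, 4424 and 256 CPM of them. The other 5 day-10 libraries had 46.1 to 215 CPM of Serpina3f, 982 to 1984 CPM of Serpina3g and 95.5 to 155 CPM of Slfn9. Without replicate 6 the values with experiment as a term were positive, at 0.59 for Serpina3f, 0.31 for Serpina3g and 0.089 for Slfn9, none past the threshold, and that of Serpina3f was also positive without HPC replicate 3. Reads of Serpina3f and Serpina3g, and of the Schlafen genes, may be shared between paralogs.

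Shares of reads over whole libraries were compared last. Intron reads made up 57.5 ± 0.867% of the reads on genes in day-6 HSCs and 59.7 ± 1.63% in CD48+ HPCs (SD, n = 4 each), a difference of -2.21 percentage points (two-sided exact permutation test, p = 0.114, adjusted over 6 tests 0.171). Mitochondrially encoded genes took 2.04 ± 0.122% of those reads in day-6 HSCs and 1.49 ± 0.206% in CD48+ HPCs (n = 4 each; exact permutation p = 0.0286, the smallest this design allows, adjusted 0.0762). Day-10 HSCs, at 1.77 ± 0.122% (n = 6), also stood above CD48- HSCs, at 1.25 ± 0.288% (n = 4; exact permutation p = 0.00952, adjusted 0.0571), and untreated HSCs were at 1.61 ± 0.0733% and uncultured HSCs at 1.55 ± 0.127% (n = 4 each; exact permutation p = 0.371, adjusted 0.371).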

How the data were processed

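RNA-seq libraries of 100 sorted cells were prepared with the Nextera XT kit, per the labels' protocols. The authors deposited 1 table per library with counts of total exon reads per gene entry, which are whole numbers and were not normalized, beside unique exon and intron reads; the build was mm10 per the submitters' processing notes, with aligner and counter not given in the sources used here. Of 48737 entries per file, 25149 without an exon were left out, and entries of a gene were summed (1931 genes of 46113 had several). Library groups came from the titles.

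The quasi-likelihood F test of edgeR 4.0.16 (R 4.3.3) was run after filterByExpr and TMM scaling, with Benjamini-Hochberg adjustment, and DESeq2 1.42.0 served as an alternative. The 8 libraries of the comparison were fitted alone; the fit with experiment as a term used 18 libraries. CPM were scaled over 30 libraries. On simulated counts of 12546 genes the main test recovered 65.7% of 1.5-fold, 79.1% of 2-fold and 97.0% of 4-fold changes, with 5.85% of calls false. The test of untreated against uncultured HSCs recovered 28.4% of 1.5-fold and 83.6% of 2-fold changes. For day-10 against CD48- HSCs these shares were 31.3% and 80.6%. With experiment as a term they were 25.4% and 55.2%, with 8.26% of calls false. A call lost there does not show that a gene did not differ. Each fold was given to 67 or 66 genes, far fewer than were called in the main comparison. Named genes were the 12 largest rises and 12 largest falls called in both fits with CPM that do not overlap and, where higher, a log2 CPM averaging 5 or more, up to 3 members per list and direction, fixed markers, and the 4 called genes with the largest change whose sign differed between fits; predicted genes were left out, and some genes under this rule are not reported here. The comparison and the gene lists were chosen with earlier results of these data known. No pair of libraries differed by as little as sampling noise. Counting intervals and floors cover counting error only.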

Additional observations from a re-analysis of the deposited data

Results flagged for a closer look

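Among 138 groups of 4 libraries, 9 held a library whose gap to its nearest neighbour, divided by the range of the group, passed Dixon's 95% critical value of 0.829, which chance alone gives in about 1 of 20 groups.

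In day-6 HSCs, replicate 1 had the single read of Mpo (0.147 CPM, against 0 in the other 3 libraries, a gap of 1.0 of the range). A single read gives that gap whichever library holds it, so this flag is no result. Nop10 was lowest in the same library, at 95.7 CPM against 112 to 116 CPM in the others (gap 0.836). The intron share was lowest in replicate 3, at 56.2% against 57.9% to 58.0% in the others (gap 0.921).

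In CD48+ HPCs, replicate 3 had 299.7 CPM of Mecom against 227 to 228 CPM in the other libraries (gap 0.984) and 47.0 CPM of Serpina3f against 14.8 to 17.6 CPM (gap 0.913). Replicate 1 had 440.1 CPM of Mcm6 against 348 to 351 CPM (gap 0.970), 95.1 CPM of Pold2 against 70.3 to 74.2 CPM (gap 0.844) and 44.2 CPM of Btg2 against 79.5 to 85.1 CPM (gap 0.865). Replicate 4 had 12.7 CPM of Obsl1 against 9.43 to 9.82 CPM (gap 0.880).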

How the results depend on the processing

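The main count of 3961 genes was 864 with a 2-fold minimum and 2473 by intron reads, and between 3011 and 4141 without 1 library; with another normalization, DESeq2, unique exon reads, no filter on low counts or all 30 libraries in 1 fit it moved by less than 1.5 times. Of the 63 called genes named in the text, 50 kept their call with experiment as a term, 5 lost it and 8 changed sign. The naming rule required the call in both fits of some of these genes and a changed sign of 4. The split therefore describes the named genes only, and over all 3961 calls 983 (24.8%) kept the call in the same direction. With experiment as a term the 1152 calls were 598 at 2-fold or more and between 856 and 1218 without 1 library. Untreated against uncultured HSCs gave 18 at 2-fold or more, 651 by DESeq2, 626 with all 30 libraries in 1 fit, 1 by intron reads, 122 by unique exon reads, and between 31 and 121 without 1 library. Day-10 against CD48- HSCs gave 36 at 2-fold or more, 1456 by DESeq2, 2187 with all 30 libraries, 1 by intron reads, between 8 and 906 without 1 library, and 9 without day-10 replicates 4 and 6, a choice made after seeing the data.

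Same-numbered libraries did not deviate together (correlations between -0.252 and 0.0436 in the main comparison), so the numbers do not pair them. With the replicate block, 3347 genes were called in the main comparison, 3 between untreated and uncultured HSCs and 9 between day-10 and CD48- HSCs; Mki67 and Cd5l lost the call.

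Signs turned with experiment as a term for Hlf (0.37), Cdk1 (-0.73), Tyms (-0.45), Mcm6 (-0.25), Pold2 (-0.17), Pold3 (-0.048), Polr1a (-0.16), Nop10 (-0.15), Serpina3g (-0.16), Slfn9 (-0.16) and Serpina3f (-0.43). Without day-10 replicate 6 Serpina3g, Slfn9 and Serpina3f did not turn, and Pold3 kept its direct sign without CD48- replicate 3 or any of day-10 replicates 1, 4 and 6. By intron reads they turned for Pold3 (-0.17) and Cdk1 (-0.25), and without 1 library Cdk1 lay between -0.033 and 0.14. The cause was not tested. The difference in intron share lay between -2.93 and -1.61 percentage points without 1 library, and that in mitochondrial share between 0.488 and 0.627. Day-6 libraries hold fewer reads than HPC libraries, which limits genes near 0 in day-6 HSCs.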
